A study of Mus musculus with 2 samples.

Results

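The genes described here encode lysosomal enzymes, their activators, lysosomal membrane proteins and 2 regulators of the lysosome, measured in cultured mouse perivascular cells with and without Kai1. They are a list of 40 named genes, taken as listed, and a gene with several rows would have been given the mean of its rows. Of the 40, 39 had a row in both expression tables, among 20211 gene symbols, and 37 reached a mean of 1 RPKM, reads divided by transcript length in kilobases and by library size, as did 10068 genes in all. Glb1 was not analysed here, Ctss was listed at 0 RPKM in both libraries, and Ctsc stayed under the minimum.

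RNA was sequenced from primary perivascular cells (PVCs, also called pericytes in the study) of the mouse aorta on the C57BL/6 background, cultured in DMEM with fetal bovine serum. One group was wild type (WT) and the other Kai1 KO, in which Kai1, the tetraspanin gene Cd82, was knocked out. Each genotype had 1 library, so no spread between replicates, test or p-value was available, and each difference compares these 2 libraries. How the allele was made, how many mice gave the cells and whether cells were pooled are not given in the sources used here.

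Lysosomes are acidic organelles in which hydrolases break down proteins, glycans, lipids and nucleic acids that arrive by endocytosis and autophagy. Most soluble lysosomal enzymes are tagged with mannose 6-phosphate in the Golgi and sorted by receptors, while the membrane proteins protect the limiting membrane and export the products. The transcription factor TFEB and its relatives drive many of these genes together by binding a palindromic E-box in their promoters, and they are held in the cytosol when the kinase mTORC1 is active at the lysosome. Pericytes and smooth muscle cells of the vessel wall use the same machinery, and secreted cathepsins of this family cut collagen and elastin.

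The E-box and the longer palindrome that contains it were located in the promoters, since several lysosomal genes share them. RefSeq promoter windows on GRCm38.p6, running from 250 bases before to 50 bases after an annotated start, matched 35 members with 41 windows. Galns, Ctsb, Ctsh, Npc1 and Asah1 had no matched window. The hexamer CACGTG stood in 12 of the 35 (34.3%), against 8.09% of 27025 genes with a window and 12.2% of the 7644 genes that were also kept. The octamer TCACGTGA stood in 4 of the 35 (11.4%), against 1.12% of genes with a window and 2.37% of those kept. Both motifs read the same on either strand, and each octamer contains a hexamer. A match describes the letters of the window and not a bound site.

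The stretches below are those that hold the octamer, several hexamers, or a hexamer in a gene more than 2-fold lower in Kai1 KO. They are written 5′ to 3′ on the strand of the gene, with the motifs in capitals. The positions are those of GRCm38.p6 and do not apply to mm9, the build of the expression tables.

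Ctsa, chr2:164833741-164833792, plus strand: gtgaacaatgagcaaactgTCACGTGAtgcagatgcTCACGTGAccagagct

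Mcoln1, chr8:3500428-3500499, plus strand: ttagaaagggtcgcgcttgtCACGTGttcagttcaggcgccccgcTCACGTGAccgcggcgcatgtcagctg

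Cln3, chr7:126583332-126583405, minus strand: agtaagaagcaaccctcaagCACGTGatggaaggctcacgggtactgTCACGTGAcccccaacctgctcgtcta

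Ctsd, chr7:142387900-142388077, minus strand: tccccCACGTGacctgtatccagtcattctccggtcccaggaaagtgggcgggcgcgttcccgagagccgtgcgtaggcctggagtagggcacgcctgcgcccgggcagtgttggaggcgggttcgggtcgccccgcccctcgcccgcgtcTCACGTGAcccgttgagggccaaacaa

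Lamp1, chr8:13159080-13159171, plus strand: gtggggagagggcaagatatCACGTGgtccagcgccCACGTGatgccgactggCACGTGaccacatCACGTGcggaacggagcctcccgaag

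Ctsl, chr13:64370731-64370770, minus strand: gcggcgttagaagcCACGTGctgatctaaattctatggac

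Ctsf, chr19:4855066-4855111, plus strand: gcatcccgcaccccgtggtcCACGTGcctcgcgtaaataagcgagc

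Ctsa carried 2 octamers on either side of its start, and Lamp1 carried 4 hexamers within 61 bases upstream of its start and no octamer. Mcoln1, Cln3 and Ctsd each had 1 octamer and 1 further hexamer. Single hexamers were found in Arsa, Ctsf, Ctsl, Gaa, Glb1, Lgmn and Naglu. The windows of Tfeb, Grn, Ctsk and Ctsz held neither motif.

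**Figure D1:**
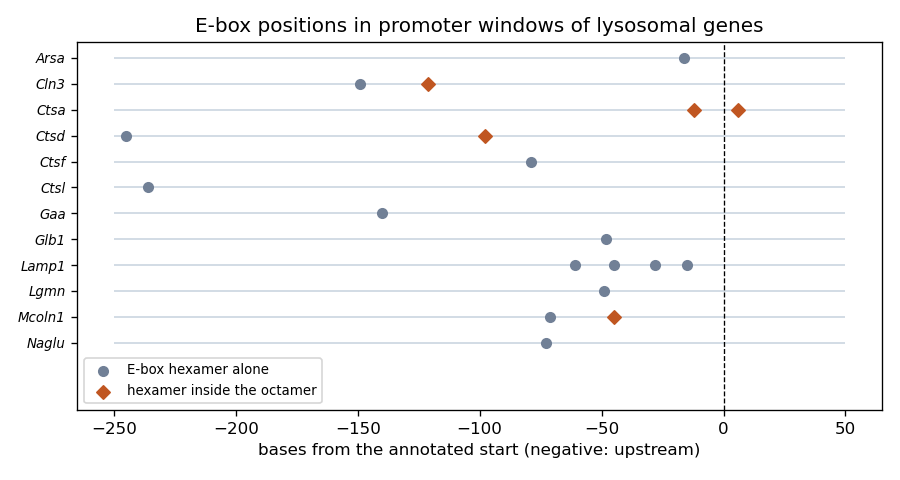
Positions of the E-box hexamer in the promoter windows of the 12 lysosomal genes that hold it, in bases from the annotated start (x axis, negative upstream), with 1 line per gene. Circles mark a hexamer alone and diamonds a hexamer inside the octamer. Most matches lie within 150 bases upstream of the start, and Ctsd and Ctsl also hold 1 near the upstream edge of the window.

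To examine whether loss of Kai1 was accompanied by a difference in the lysosomal genes, their levels were compared between the libraries. Most were lower in Kai1 KO. The ratio of Kai1 KO to WT, computed as log2 of the ratio of RPKM + 0.1, was below 0 for 32 of the 37 genes kept, against 44.9% of all genes kept. Its median was -0.67 over the 37 genes, with quartiles of -0.98 and -0.38, and 0.08 over all genes kept. The 39 genes with a row together amounted to 4353 RPKM in WT and 2524 RPKM in Kai1 KO, which is 58.0% of the WT sum. In a bulk sample, fewer cells of a type and less RNA per cell cannot be told apart.

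A total of 7 genes were more than 2-fold lower in Kai1 KO (18.9% of the 37, against 7.81% of all genes kept), namely Ctsb, Ctsf, Ctsk, Ctsl, Ctsz, Grn and Idua. Only Tfeb was more than 2-fold higher, against 7.98% of all genes kept. Gaa, the acid alpha-glucosidase, lay just short of 2-fold at a log2 ratio of -0.997. A ratio below the members' median was found for 13.97% of all genes kept, so most single lysosomal genes did not stand at the extreme of the transcriptome. They were grouped on 1 side of it, with 33 of the 37 below the median of all genes.

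The precision of a single ratio was estimated from the reads. The low RPKM values lay near whole multiples of what 1 read is worth, and gave an estimated 29700000 reads for WT and 26800000 for Kai1 KO. The members kept had an estimated 207 to 51323 reads in WT and 105 to 25783 in Kai1 KO. The 95% interval of the ratio for counting error lay below 0 for 31 genes and above 0 for 4, and included 0 for 2 (Lgmn and Galns). It lay wholly beyond 2-fold for Ctsf, Ctsk, Ctsl, Ctsz and Grn on the lower side and for Tfeb on the higher side. These intervals cover counting error only and not the spread between cultures.

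The scale of the ratio depends on how the libraries are set against each other. The RPKM summed to 884463 in WT and 1238190 in Kai1 KO, and 83 ribosomal protein genes took 37.5% of it in WT and 48.9% in Kai1 KO. Gapdh was 4238 RPKM in WT and 5997 RPKM in Kai1 KO, a log2 ratio of 0.50. The lysosomal genes accounted for 0.492% of the summed RPKM in WT and 0.204% in Kai1 KO. Cd82, the targeted gene, was 12.8 RPKM in WT and 2.62 RPKM in Kai1 KO, which matches the labels in direction though it was not at 0. All 4 Y-linked genes examined (Ddx3y, Eif2s3y, Kdm5d and Uty) were at 0 in Kai1 KO and between 0.48 and 6.56 RPKM in WT, so genotype and the presence of Y-linked RNA cannot be told apart here. When the libraries were scaled to Gapdh, the median of all genes moved to -0.41, that of the lysosomal genes to -1.16, and 36 of the 37 were below 0, including Ctsh, Lipa, Cln3 and Lgmn, while Tfeb was above. Any gene with a ratio between 0 and 0.50 falls on the lower side with that scaling. Before scaling, 75.3% of all genes kept had a ratio below that of Gapdh. Scaling to the same sum of RPKM also left Tfeb alone above 0.

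**Figure D2:**
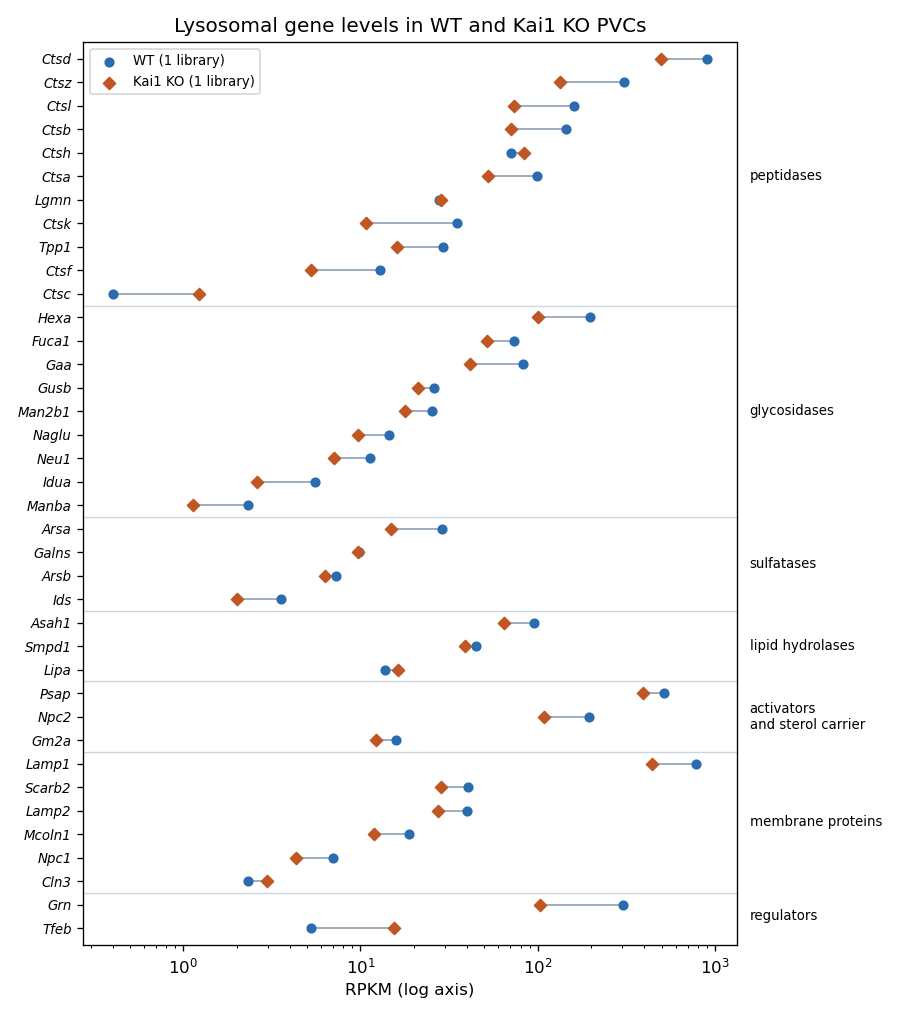
Levels of the 38 lysosomal genes with a value above 0 in RPKM (log x axis), by role and by mean level within each role. Circles show the WT library and diamonds the Kai1 KO library, with 1 library each and no error bar. The diamond lies to the left of the circle for most genes in each role except the regulators. It lies to the right for Ctsh, Lgmn, Ctsc, Lipa, Cln3 and Tfeb (scaling to Gapdh would put Ctsh, Lgmn, Lipa and Cln3 on the left).

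The peptidases held 5 of the 7 genes more than 2-fold lower. Among the 10 peptidases kept, 8 were below 0 and the median log2 ratio was -0.98. Cathepsin K, an elastin- and collagen-cutting cysteine protease best known from osteoclasts, was 35.1 RPKM in WT and 10.8 RPKM in Kai1 KO, a log2 ratio of -1.69 (counting interval -1.87 to -1.53). Its gene lies on chr3:95303208-95313284 (mm9, plus strand). It was the lowest ratio of all members. Cathepsin F was 12.9 RPKM in WT and 5.25 RPKM in Kai1 KO (log2 ratio -1.28). Cathepsin Z, a carboxypeptidase, was 308 RPKM in WT and 134 RPKM in Kai1 KO (log2 ratio -1.21). Cathepsin L, an endopeptidase that also processes other cathepsins, was 160 RPKM in WT and 73.7 RPKM in Kai1 KO (log2 ratio -1.11).

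Cathepsin B, the cysteine protease with both endopeptidase and exopeptidase action, was 144 RPKM in WT and 70.5 RPKM in Kai1 KO, a log2 ratio of -1.03 whose counting interval reached -0.998. Exons of Ctsb overlap those of Fdft1 on the other strand, which was 46.6 RPKM in WT and 60.5 RPKM in Kai1 KO, and exons of Ctsz overlap Nelfcd, at 22.9 RPKM in WT and 31.2 RPKM in Kai1 KO. On the RPKM scale both neighbours were higher in Kai1 KO while Ctsb and Ctsz were lower. Whether the counting used strand is not given in the sources used here, so reads of such pairs cannot be told apart. Exons of 10 members overlap another gene in this way or on the same strand.

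The other peptidases differed by less than 2-fold. Cathepsin D, the main aspartic protease of the lysosome, had the highest level of all members, at 899 RPKM in WT and 494 RPKM in Kai1 KO (log2 ratio -0.86). Ctsa, the protective protein that stabilises beta-galactosidase and neuraminidase, was 99.7 RPKM in WT and 52.2 RPKM in Kai1 KO. Tpp1, a tripeptidyl peptidase, was 29.1 RPKM in WT and 16.1 RPKM in Kai1 KO. These were all on the lower side. Ctsh, an aminopeptidase, was 70.5 RPKM in WT and 83.3 RPKM in Kai1 KO (log2 ratio 0.24, counting interval 0.19 to 0.30), a direction that turned when the libraries were scaled to Gapdh or to the same sum of RPKM. Legumain, the asparaginyl endopeptidase that matures several cathepsins, was 27.8 RPKM in WT and 28.3 RPKM in Kai1 KO. Ctsc, which activates serine proteases of immune cells, was low in both, at 0.40 RPKM in WT and 1.24 RPKM in Kai1 KO, with an estimated 36 and 99 reads. On the RPKM scale Ctsh, Lgmn and Ctsc were therefore the peptidases that were not lower, and scaling to Gapdh put Ctsh and Lgmn below 0. Ctss, the cathepsin of antigen-presenting cells, was at 0 in both libraries.

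All 9 glycosidases kept were below 0, with a median log2 ratio of -0.67, yet only Idua passed 2-fold with the pseudocount of 0.1 RPKM. Idua, which removes iduronic acid from glycosaminoglycans, was 5.56 RPKM in WT and 2.61 RPKM in Kai1 KO (log2 ratio -1.07, counting interval -1.32 to -0.87). Its exons overlap Dgkq on the other strand, at 4.19 RPKM in WT and 3.20 RPKM in Kai1 KO. Hexa, the alpha subunit of beta-hexosaminidase, had the highest level of the group, at 197 RPKM in WT and 99.8 RPKM in Kai1 KO (log2 ratio -0.98). Gaa, which degrades glycogen, was 82.5 RPKM in WT and 41.3 RPKM in Kai1 KO. Manba, a beta-mannosidase, was 2.33 RPKM in WT and 1.13 RPKM in Kai1 KO, on an estimated 240 and 105 reads. These 3 lay near 2-fold on the lower side, and Manba passed it with a pseudocount of 0.01 RPKM.

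The remaining glycosidases had smaller ratios. Neu1, a sialidase, was 11.4 RPKM in WT and 7.11 RPKM in Kai1 KO. Naglu, which acts on heparan sulfate, was 14.4 RPKM in WT and 9.67 RPKM in Kai1 KO. Fuca1, a fucosidase, was 73.9 RPKM in WT and 51.5 RPKM in Kai1 KO. Their log2 ratios ran from -0.67 to -0.52. Man2b1, an alpha-mannosidase, was 25.4 RPKM in WT and 17.8 RPKM in Kai1 KO. Gusb, a beta-glucuronidase often used as a reference gene in RT-PCR, was nearest to 0 in this group, at 26.2 RPKM in WT and 21.02 RPKM in Kai1 KO (log2 ratio -0.31).

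The 4 sulfatases were all below 0, by unequal amounts. Arsa, which acts on sulfatide, was 28.9 RPKM in WT and 14.9 RPKM in Kai1 KO (log2 ratio -0.95), and Ids, the iduronate sulfatase, was 3.57 RPKM in WT and 2.01 RPKM in Kai1 KO (log2 ratio -0.79). Arsb, which acts on dermatan sulfate, was 7.28 RPKM in WT and 6.31 RPKM in Kai1 KO (log2 ratio -0.20, counting interval -0.36 to -0.05). Galns, which acts on keratan sulfate, was 9.82 RPKM in WT and 9.70 RPKM in Kai1 KO, and its counting interval of -0.18 to 0.15 included 0. Arsa and Ids were thus farther below WT than Arsb and Galns.

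The lipid hydrolases had the smallest ratios of the enzyme groups, with a median log2 ratio of -0.20 over 3 genes. Asah1, the acid ceramidase, was 95.8 RPKM in WT and 64.2 RPKM in Kai1 KO (log2 ratio -0.58). Smpd1, the acid sphingomyelinase, was 44.7 RPKM in WT and 38.9 RPKM in Kai1 KO. Lipa, the acid lipase that frees cholesterol from esters, was on the other side, at 13.7 RPKM in WT and 16.4 RPKM in Kai1 KO (log2 ratio 0.26, counting interval 0.14 to 0.38), though not when scaled to Gapdh or to the same sum. Of the activators, Psap, the precursor of the saposins, was among the highest members at 517 RPKM in WT and 393 RPKM in Kai1 KO (log2 ratio -0.40). Gm2a, the cofactor of ganglioside hydrolysis, was 15.9 RPKM in WT and 12.2 RPKM in Kai1 KO. Npc2, the soluble carrier that hands cholesterol to Npc1, was 194 RPKM in WT and 108 RPKM in Kai1 KO (log2 ratio -0.85).

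Among the 6 membrane proteins 5 were below 0 and none passed 2-fold, with a median log2 ratio of -0.59. Lamp1, a main glycoprotein of the lysosomal membrane, had the second highest level of the members, at 778 RPKM in WT and 444 RPKM in Kai1 KO (log2 ratio -0.81). Lamp2, its relative that also serves chaperone-mediated autophagy, was 39.9 RPKM in WT and 27.5 RPKM in Kai1 KO. Scarb2, a receptor that carries a hydrolase to the lysosome, was 40.2 RPKM in WT and 28.6 RPKM in Kai1 KO. The channel and the transporter of the group were lower as well. Mcoln1, a calcium channel, was 18.7 RPKM in WT and 11.99 RPKM in Kai1 KO, and Npc1, the cholesterol exporter, was 7.01 RPKM in WT and 4.32 RPKM in Kai1 KO. Cln3 was low and, except when scaled to Gapdh or to the same sum of RPKM, on the higher side, at 2.33 RPKM in WT and 2.96 RPKM in Kai1 KO (log2 ratio 0.33, counting interval 0.07 to 0.63), and its exons overlap Apobr, which was 4.67 RPKM in WT and 1.013 RPKM in Kai1 KO.

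The 2 regulators stood at opposite ends. Grn encodes progranulin, a secreted growth factor precursor that is also taken to lysosomes and cut there into granulins. It was 303 RPKM in WT and 103 RPKM in Kai1 KO, a log2 ratio of -1.56 (counting interval -1.60 to -1.52). Tfeb was 5.23 RPKM in WT and 15.4 RPKM in Kai1 KO, a log2 ratio of 1.54 (counting interval 1.37 to 1.74), on an estimated 332 and 881 reads. It lies on chr17:47873979-47929368 (mm9, plus strand), and 2.47% of all genes kept had a higher ratio. The mRNA of the factor known to drive lysosomal genes was therefore higher in the library in which most of those genes were lower. The amount, location and phosphorylation of the TFEB protein were not measured.

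**Figure D3:**
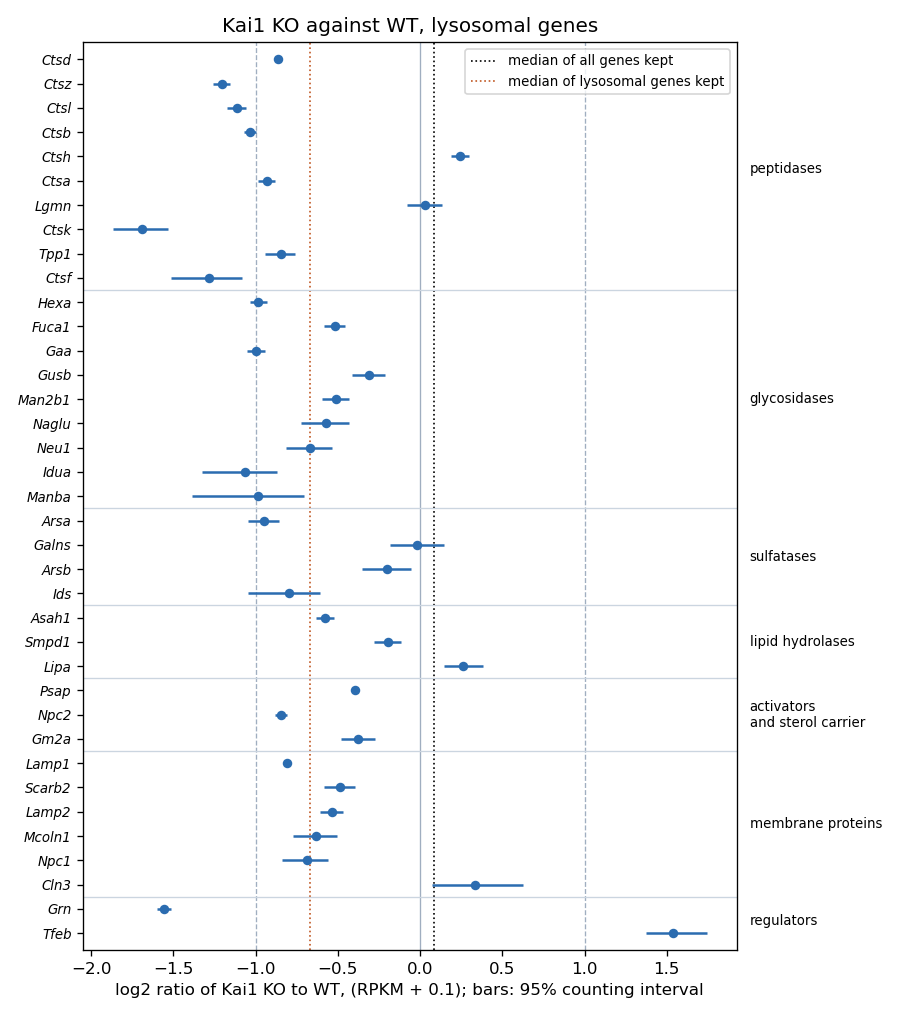
The log2 ratio of Kai1 KO to WT (x axis, RPKM + 0.1) for the 37 lysosomal genes kept, by role, with bars for the 95% counting interval from estimated reads, which do not cover the spread between cultures. Dotted lines mark the medians of these genes (-0.67) and of all genes kept (0.08), and dashed lines 2-fold. Ctsk and Grn lie farthest to the left and Tfeb alone lies beyond 2-fold on the right.

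Ranking by level showed how much of the group rested on few genes. Ctsd, Lamp1, Psap, Ctsz, Grn and Npc2, the 6 members with the highest mean, made up 68.9% of the members' RPKM in WT and 66.4% in Kai1 KO. The order of the 37 genes by level was similar in both libraries (Spearman's rho 0.95, across genes, which are not independent replicates). The ratio was only weakly related to the mean level (rho -0.25) and to the length of the longest transcript (rho 0.13). The longest transcripts had a median of 2743 bases over the members and 3010 bases over all genes kept.

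Genes with and without the E-box in the promoter window were both mostly lower in Kai1 KO. Of the 12 that hold the hexamer, 11 were kept, with a median log2 ratio of -0.86, 9 below 0 and 2 (Ctsf and Ctsl) more than 2-fold lower. The 21 kept genes whose window holds no hexamer had a median of -0.54, and 4 of them were more than 2-fold lower. Among all genes kept, 44.9% were below 0 and 7.81% were more than 2-fold lower. The counts past 2-fold are too small to tell the genes with and without the hexamer apart. For the octamer the medians were -0.75 over 4 genes with it and -0.73 over 28 without it. Among the octamer genes, Ctsa, Ctsd and Mcoln1 were lower in Kai1 KO and Cln3 was not. Lgmn, with 1 hexamer, was at about the same level in both libraries, and Ctsk, Ctsz and Grn were among the lowest ratios although their windows hold no match.

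To see how far beyond the listed genes the difference extended, other lists of the lysosomal pathway were described in the same way. The 28 kept genes of 34 other lysosomal hydrolases had a median log2 ratio of -0.76, and 22 were below 0. More than 2-fold lower were 6 (21.4%, against 7.81% of all genes kept), and 1 was more than 2-fold higher. Scpep1, a serine carboxypeptidase, was 166 RPKM in WT and 43.2 RPKM in Kai1 KO. Ppt1, a palmitoyl-protein thioesterase, was 17.4 RPKM in WT and 8.44 RPKM in Kai1 KO, and Hyal1, a hyaluronidase, was 3.06 RPKM in WT and 1.28 RPKM in Kai1 KO. The sphingomyelinase-like pair Smpdl3a and Smpdl3b went opposite ways, with Smpdl3a at 3.57 RPKM in WT and listed at 0 in Kai1 KO, and Smpdl3b at 1.31 RPKM in WT and 7.01 RPKM in Kai1 KO.

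The other parts of the system had medians nearer to 0, though their shares past 2-fold were not all smaller. The 19 kept of 27 other lysosomal membrane proteins had a median log2 ratio of -0.37, 15 were below 0, and 4 were more than 2-fold lower (Laptm4b, Ctns, Tpcn1 and Slc11a1). These 4 were 21.1% of the 19 proteins, against 18.9% of the members and 7.81% of all genes kept. Cd63, a tetraspanin as Kai1 is, had the highest level of the list at 717 RPKM in WT and 782 RPKM in Kai1 KO. Tpcn1, a cation channel of endosomes and lysosomes, was 23.2 RPKM in WT and 8.47 RPKM in Kai1 KO. Ctns, the cystine exporter, was 4.73 RPKM in WT and 1.80 RPKM in Kai1 KO. Laptm4b was 23.8 RPKM in WT and 10.4 RPKM in Kai1 KO, and Slc11a1, an iron and manganese transporter of phagocytes, was 3.23 RPKM in WT and 0.43 RPKM in Kai1 KO.

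Of 25 subunits of the V-ATPase, the pump that acidifies the lysosome, 20 were kept with a median of -0.42 and 16 below 0. Among the 20 kept, 3 were more than 2-fold lower (15%, against 7.81% of all genes kept). Atp6v0d1 was 139 RPKM in WT and 60.9 RPKM in Kai1 KO, Atp6v0a1 was 24.6 RPKM in WT and 11.1 RPKM in Kai1 KO, and Atp6v0e2 was 9.06 RPKM in WT and 2.52 RPKM in Kai1 KO. All these belong to the membrane sector of the pump. Atp6v0c, the proteolipid subunit with the highest level, was 616 RPKM in WT and 574 RPKM in Kai1 KO. Only Atp6v1g2, at 0.94 RPKM in WT and 2.23 RPKM in Kai1 KO, was more than 2-fold higher.

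The sorting and signalling genes had medians closer to 0 than the hydrolases. Of 24 genes of mannose 6-phosphate tagging, receptors, adaptors and tethers, 23 were kept with a median log2 ratio of -0.20, 17 below 0 and none past 2-fold. Ap1s1, a subunit of the AP-1 adaptor, had the highest level at 242 RPKM in WT and 289 RPKM in Kai1 KO. The mannose 6-phosphate receptors Igf2r and M6pr were 5.91 and 33.4 RPKM in WT and 3.21 and 25.1 RPKM in Kai1 KO, and Gnptab, of the tagging enzyme, was 5.23 RPKM in WT and 7.73 RPKM in Kai1 KO. Of 18 genes of the TFEB family and of mTORC1 at the lysosome, 14 were kept with a median of -0.11, 9 below 0 and none past 2-fold. Tfe3, the relative of Tfeb, was 14.8 RPKM in WT and 15.2 RPKM in Kai1 KO. Mitf was low in both, at 0.34 RPKM in WT and 0.47 RPKM in Kai1 KO. Lamtor1, of the complex that anchors mTORC1 to the lysosome, had the highest level of the list at 177 RPKM in WT and 178 RPKM in Kai1 KO.

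Autophagy genes, which deliver cargo to lysosomes, were all kept (24 of 24), with a median log2 ratio of -0.32, 19 below 0 and 2 more than 2-fold lower (8.3%, close to the 7.81% of all genes kept). Sqstm1, the cargo receptor p62, was 320 RPKM in WT and 142 RPKM in Kai1 KO, and Calcoco1 was 16.3 RPKM in WT and 7.66 RPKM in Kai1 KO. Map1lc3b, a substrate of the conjugation system, was 222 RPKM in WT and 183 RPKM in Kai1 KO, and Atg12, of the same system, was 9.09 RPKM in WT and 5.01 RPKM in Kai1 KO. Of 8 inhibitors of cathepsins 4 were kept, with a median log2 ratio of 0.05. Cst3, the secreted cystatin C, was 1761 RPKM in WT and 1885 RPKM in Kai1 KO, and Cstb, the cytosolic stefin B, was 259 RPKM in WT and 476 RPKM in Kai1 KO. Serpinb6a was 647 RPKM in WT and 650 RPKM in Kai1 KO. Cst6 was 4.19 RPKM in WT and 2.22 RPKM in Kai1 KO, the 1 inhibitor below 0 on the RPKM scale, while Cst3 and Serpinb6a also fell below 0 when scaled to Gapdh or to the same sum.

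**Figure D4:**
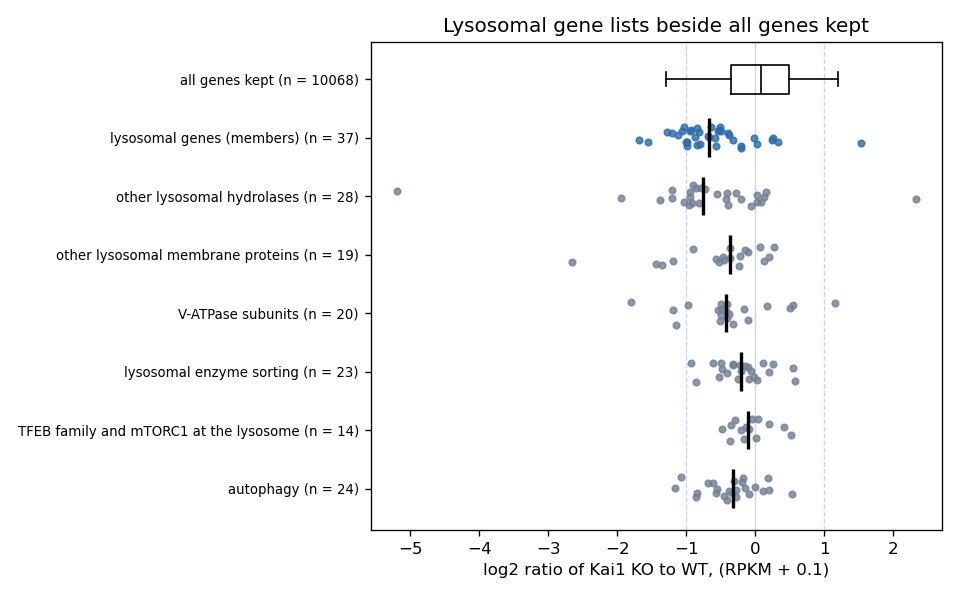
The log2 ratio of Kai1 KO to WT (x axis, RPKM + 0.1) for the lysosomal genes and 6 further lists, with 1 point per gene kept and a black bar at the median. The box for all genes kept spans the quartiles with its whiskers at the 5th and 95th percentiles, and the line in it is the median. The members (-0.67) and the other hydrolases (-0.76) lie farthest to the left, and sorting (-0.20) and TFEB family and mTORC1 genes (-0.11) lie closest to 0.

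The cell type was examined with marker genes, because lysosomal genes are high in macrophages. Of 20 macrophage markers 5 were kept, and the summed level of the list was 42.4 RPKM in WT and 19.5 RPKM in Kai1 KO. Among the 5 kept, 4 were more than 2-fold lower (80%, against 7.81% of all genes kept) and 1 was more than 2-fold higher. The 15 markers not kept had a mean under 1 RPKM. Of these, Emr1, C1qa, C1qb, C1qc, Aif1 and Fcgr1 were at 0 in both libraries. Ptprc was 0.041 RPKM in WT and 0.007 RPKM in Kai1 KO, and Spi1 was 0.179 RPKM in WT and 0.033 RPKM in Kai1 KO. Itgam, Mrc1 and Mpeg1 were near 0 in both as well. The highest of the 15 by mean was Cd68, at 1.17 RPKM in WT and 0.46 RPKM in Kai1 KO. Csf1r was 11.7 RPKM in WT and 2.66 RPKM in Kai1 KO, Tyrobp was 10.4 RPKM in WT and 2.37 RPKM in Kai1 KO, and Fcer1g was 11.3 RPKM in WT and 2.47 RPKM in Kai1 KO. Lyz2 was 3.44 RPKM in WT and 1.09 RPKM in Kai1 KO, whereas Cd14 was 1.98 RPKM in WT and 10.3 RPKM in Kai1 KO. The part of such cells in the lysosomal ratios was not tested.

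Most markers of the vessel wall were lower in Kai1 KO as well. Of 13 mural markers 8 were kept, all 8 below 0 and 5 more than 2-fold lower (Tagln, Myh11, Cnn1, Myl9 and Mcam). These 5 were 62.5% of the 8, against 7.81% of all genes kept. The 13 markers together summed to 5905 RPKM in WT and 3195 RPKM in Kai1 KO. Acta2 was 3823 RPKM in WT and 2580 RPKM in Kai1 KO, Pdgfrb was 44.7 RPKM in WT and 31.6 RPKM in Kai1 KO, and Cspg4, which encodes the pericyte marker NG2, was 15.4 RPKM in WT and 8.27 RPKM in Kai1 KO. Rgs5 and Kcnj8, further pericyte markers, were under 1 RPKM in both and higher in Kai1 KO, with Rgs5 at 0.063 RPKM in WT and 0.233 RPKM in Kai1 KO and Kcnj8 listed at 0 in WT and at 0.791 RPKM in Kai1 KO. Of 11 fibroblast markers 9 were kept, 7 were below 0 and 4 more than 2-fold lower (Pdgfra, Col1a2, Dpt and Ly6a). These 4 were 44.4% of the 9, against 7.81% of all genes kept. The 11 markers together summed to 25055 RPKM in WT and 21108 RPKM in Kai1 KO. Most of this sum was S100a4, at 21546 RPKM in WT and 19136 RPKM in Kai1 KO. On the RPKM scale 2 kept markers were above 0. Col3a1 was 67.5 RPKM in WT and 101 RPKM in Kai1 KO, and Thy1 was 324 RPKM in WT and 380 RPKM in Kai1 KO. Of 14 endothelial markers only Eng was kept (42.0 RPKM in WT and 21.4 RPKM in Kai1 KO), 5 were at 0 in WT and 12 in Kai1 KO, and Pecam1, Tek, Erg and Kdr were between 0.122 and 0.413 RPKM in WT and listed at 0 in Kai1 KO. The list summed to 43.4 RPKM in WT and 21.6 RPKM in Kai1 KO, and nearly all of this was Eng. Among all 20211 symbols, 5690 were at 0 in WT and 6902 in Kai1 KO. Of the markers that define perivascular cells, Pdgfrb, Cspg4 and Acta2 were therefore present while Rgs5 and Kcnj8 were under 1 RPKM. The part of a different cell make-up in the lysosomal ratios was not tested.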

How the data were processed

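RNA was sequenced as 1 library of WT and 1 library of Kai1 KO cells. The authors aligned reads to mm9 with TopHat2 2.0.9 (segment length 21, 2 mismatches), and deposited 1 RPKM value per RefSeq gene and library. The submitters' processing notes also name Bowtie and Cufflinks without a version. The study's own tests between the libraries were not used.

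Rows without a symbol (38 of 20462) were left out, and the 153 symbols with several rows were averaged, none of them a member. The ratio was log2 of (RPKM + 0.1) in Kai1 KO over WT, for genes with a mean of at least 1 RPKM. With 1 library per genotype no test was run. Members, roles and lists were chosen with earlier results of these data known. Genes named were all members, and in the other lists those past 2-fold and the highest in level, except some that are not reported here. A few further genes were named after their values were seen (Igf2r, M6pr, Gnptab, Tfe3, Mitf, Map1lc3b, Atg12, Cst6 and some markers).

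Reads were estimated from the steps of low RPKM values with a fragment of 205 bases. Of 513 such values in WT and 329 in Kai1 KO, 80.3% and 77.8% were no more than 0.15 reads from a whole number. The longest GENCODE M1 transcript set the reads of each gene, which are therefore approximate. The scripts were tested on simulated data. Promoters came from RefSeq (GRCm38.p6) and were searched for CACGTG and TCACGTGA. Python 3.11.15 was used with scipy 1.17.1, pandas 2.3.3, numpy 2.4.6, matplotlib 3.10.9 and statsmodels 0.14.6. Alternatives were other pseudocounts, scalings, filters, the highest row of repeated symbols, and removal of trends with length and level.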

Additional observations from a re-analysis of the deposited data

How the results depend on the processing

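No paired analysis was possible because there was only 1 library of each genotype and no test was run. The median log2 ratio of the lysosomal genes was below that of all genes kept in all 11 alternatives, by 0.63 to 0.77, and Tfeb stayed more than 2-fold higher in each. With the median of the genes kept set to 0, 12 members were more than 2-fold lower (9.02% of all genes kept). With the libraries scaled to the same upper quartile the median was -0.80 and 12 members were lower (9.70% of all). Scaling to Gapdh gave a median of -1.16 and 25 lower (18.4% of all), and scaling to the same sum of RPKM gave -1.15 and 24 lower (18.0% of all). These scalings shift every gene by 1 constant, and the median of all genes was then -0.41 and -0.39 for the last pair. Without a filter on mean RPKM 2 members were more than 2-fold higher, since Ctsc was added. In alternatives chosen after seeing the data, 11 members were lower with the transcript length trend removed (9.31% of all) and 14 with the mean level trend removed (8.98% of all). A pseudocount of 1 RPKM took Idua to less than 2-fold, and a pseudocount of 0.01 RPKM took Manba to more than 2-fold lower. Of 131 log2 ratios of 12 genes (those past 2-fold and the highest in level) under alternatives, 75 moved by no more than the reach of their counting interval on 1 side, 56 moved by more and 0 changed sign. Members nearer to 0 were not among the 12, so this count does not describe them. Ctsh, Lipa, Cln3 and Lgmn did change sign when scaled to Gapdh or to the same sum of RPKM. Under Gapdh scaling 36 of 37 members were below 0, and 75.3% of all genes kept had an unscaled ratio below that of Gapdh. With 1 library per genotype the spread between cultures is unknown, and the depth limits Ctsc, Cln3 and Manba most.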

Other observations

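The balance of the TFEB family differed between the libraries. Tfeb, Tfe3, Mitf and Tfec together were 20.5 RPKM in WT and 31.0 RPKM in Kai1 KO, and Tfeb made up 25.5% of this in WT and 49.6% in Kai1 KO.

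The 8 cysteine cathepsins summed to 731 RPKM in WT and 378 RPKM in Kai1 KO, while their inhibitors Cst3 and Cstb summed to 2020 RPKM in WT and 2360 RPKM in Kai1 KO. The ratio of the RPKM of these 2 inhibitors to that of the proteases was 2.76 in WT and 6.24 in Kai1 KO. Cst6, left out of this ratio, was lower in Kai1 KO, at 4.19 RPKM in WT and 2.22 RPKM in Kai1 KO. These are mRNA levels, Cst3 is secreted and Cstb cytosolic, and protease activity was not measured.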
